A study of Mus musculus with 23 samples.

Results

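The genes described here were 9 listed members of the Notch pathway and its intestinal readout, out of 22350 genes in the RNA-seq, 22230 in the organoid Ribo-seq and 22314 in the mouse Ribo-seq. They were the receptors Notch1 and Notch2, the ligands Dll1, Dll4, Jag1 and Jag2, the DNA-binding protein Rbpj, the target Hes1, and Atoh1. All 9 were present in every reference set and passed the filter on low counts in every comparison. Each was taken by its symbol in GENCODE vM21, with entries for 5′ regions left out of the main values.

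Notch receptors are activated by ligands on a neighbouring cell. A ligand bound to a receptor exposes it to cleavage by an ADAM protease and then by gamma-secretase, and the freed intracellular domain joins RBPJ and a Mastermind protein on DNA to switch on targets such as Hes1. In intestinal crypts, HES1 represses Atoh1, a transcription factor that commits cells to secretory lineages such as Paneth, goblet and enteroendocrine cells. Secretory cells carry the delta ligands that keep neighbouring stem cells in the Notch-active state, with Dll1 and Dll4 as the ligands and Notch1 and Notch2 as the receptors known for this role.

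The study asked how impaired translation changes intestinal stem cells, and all samples came from C57BL/6 mice. Wild-type (WT) organoids, which are intestinal epithelium grown in culture, had the genotype VillinCre.ERT2.RPL22.HA, and the stem cell enriched (SCe) organoids were of that genotype and were cultured with 10 µM CHIR 99021, a GSK3 inhibitor, and 1.5 mM valproic acid, an inhibitor of histone deacetylases. Rptor fl/fl organoids carried VillinCre.ERT2.Rptor.fl/fl in RNA-seq, whereas those used for Ribo-seq were VillinCre.ERT2.Rptor.fl/fl.RPL22.HA, so the WT and Rptor fl/fl RNA-seq groups differed in the tagged ribosomal protein too. Rptor encodes Raptor, a component of mTORC1, and the Villin promoter drives the tamoxifen-inducible Cre throughout the epithelium. The mice were adults, Lgr5Cre.ERT2.RPL22.HA or Lgr5Cre.ERT2.Rptor.fl/fl.RPL22.HA, in which the Lgr5 promoter drives Cre in crypt base stem cells, and footprints came from HA-tagged ribosomes pulled down from small intestine. The labels call these samples untreated, while the study's methods describe tamoxifen induction. RNA-seq covered 2 WT lines, 2 Rptor fl/fl lines (each line sequenced as 2 technical libraries, summed here) and 3 SCe cultures. Ribo-seq, which sequences the mRNA fragments protected by ribosomes, covered 3 Rptor fl/fl and 3 SCe organoid libraries and 3 mice of each genotype.

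RNA-seq units held 27439459 to 67598878 reads assigned to genes, the organoid Ribo-seq libraries 1106178 to 8257457 and the mouse libraries 772077 to 8238388. Rptor mRNA was 51.5 and 47.9 CPM (counts scaled to a common library size) in WT lines and 14.8 and 15.5 CPM in Rptor fl/fl lines, a fall of 1.71 on the log2 scale (edgeR adjusted p = 0.00516). In Ribo-seq of organoids the Rptor footprints were 17.3, 18.7 and 16.0 CPM under the Rptor fl/fl label and 15.2, 41.9 and 21.0 CPM in SCe, which overlap (log2 fold change -0.53, adjusted p = 0.318). In RNA-seq, Rptor fl/fl differed from SCe in Rptor mRNA by -1.89 on the log2 scale (95% interval -2.14 to -1.64). The interval of the footprints was -1.29 to 0.23, which lay wholly above that of the mRNA. The cause of this gap was not tested. The deleted gene therefore does not bear out the labels of the organoid footprint libraries. Stem cell markers did differ between them, with a summed level of 658 to 680 CPM under the Rptor fl/fl label and 1142 to 1903 CPM in SCe. Of these markers 3 of 5 were lower under that label, beside 9.84% of all genes, among them Lgr5 (208 against 489 CPM on average). Axin2 (log2 fold change -0.58) and Ascl2 (0.33) did not pass. Olfm4, a stem cell gene outside these 5, was higher under that label (4489 against 809 CPM on average). The SCe cultures also differed in their medium, so these marker differences do not check the labels. In mice Rptor footprints were lower in all 3 Rptor fl/fl libraries (32.6 to 36.9 CPM) than in all 3 WT libraries (39.7 to 44.7 CPM), with an adjusted p of 0.1497. SCe RNA-seq culture 1 stood apart from the other SCe cultures, with a summed level of 5 enterocyte markers of 96.6 CPM, the lowest of all RNA units, where SCe cultures reached 3834 CPM. The organoid RNA held almost no endothelial RNA, with the 8 endothelial markers summing to 0.604 to 1.34 CPM.

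In the annotation used for the files, on build mm10, Notch1 (ENSMUSG00000026923.15) lies at chr2:26457903-26516663 on the minus strand and Notch2 (ENSMUSG00000027878.11) at chr3:98013527-98150361 on the plus strand, and each has 34 exons. Dll1 (ENSMUSG00000014773.13) lies at chr17:15367354-15376872 on the minus strand and Dll4 (ENSMUSG00000027314.6) at chr2:119325784-119335962 on the plus strand, with 11 exons each. Jag1 (ENSMUSG00000027276.7) lies at chr2:137081456-137116644 and Jag2 (ENSMUSG00000002799.6) at chr12:112907819-112929776, both on the minus strand with 26 exons. Rbpj (ENSMUSG00000039191.12) lies at chr5:53466152-53657362, Hes1 (ENSMUSG00000022528.8) at chr16:30064384-30067796 and Atoh1 (ENSMUSG00000073043.5), a gene of 1 exon, at chr6:64729125-64731245, all on the plus strand.

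Of the 9 members, 8 had an entry among the RefSeq promoter sequences of build GRCm38.p6, which span 250 bases before and 50 bases after a gene's start. Hes1 had none. The 8 genes had 10 promoters between them, since Dll1 and Rbpj had 2 each. The promoters of the 3 members whose mRNA rose in Rptor fl/fl organoids are shown so that their motifs can be compared. Capitals mark matches on either strand to the E-box CAGCTG, of the class bound by ATOH1, or the N-box CACNAG, of the class bound by HES proteins, and for Dll1 the start farther upstream is shown.
Jag1, chr2:137116471-137116770, minus strand: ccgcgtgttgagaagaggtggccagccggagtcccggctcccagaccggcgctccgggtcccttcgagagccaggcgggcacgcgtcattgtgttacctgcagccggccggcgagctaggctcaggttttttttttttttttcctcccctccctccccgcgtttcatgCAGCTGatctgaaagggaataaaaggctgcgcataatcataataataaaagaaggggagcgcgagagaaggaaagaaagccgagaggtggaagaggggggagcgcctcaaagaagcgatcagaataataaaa
Dll1, chr17:15376883-15377182, minus strand: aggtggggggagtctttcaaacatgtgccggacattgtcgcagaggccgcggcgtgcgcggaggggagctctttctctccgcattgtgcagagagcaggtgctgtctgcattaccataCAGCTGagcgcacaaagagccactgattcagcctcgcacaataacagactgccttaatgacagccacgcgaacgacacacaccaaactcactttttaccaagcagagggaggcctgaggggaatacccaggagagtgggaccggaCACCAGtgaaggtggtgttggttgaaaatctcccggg
Notch2, chr3:98013288-98013587, plus strand: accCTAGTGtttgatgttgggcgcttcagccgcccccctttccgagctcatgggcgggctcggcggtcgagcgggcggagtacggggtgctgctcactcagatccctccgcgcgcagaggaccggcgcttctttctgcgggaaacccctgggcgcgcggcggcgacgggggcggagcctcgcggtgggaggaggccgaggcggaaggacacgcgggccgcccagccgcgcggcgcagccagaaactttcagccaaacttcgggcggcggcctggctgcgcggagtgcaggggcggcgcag

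Jag1 and this Dll1 promoter each held 1 E-box, 82 and 132 bases before the start, a motif present in 16.3% of 32851 promoters. No printed motif overlapped another. The Dll1 promoter also had 1 N-box and the Notch2 promoter 1 N-box, as did 42.5% of all promoters. The core RBPJ site TGGGAA, searched on both strands, was found in 25.6% of all promoters but, among the members, in Rbpj alone, whose 2 promoters overlap and held 2 and 1 matches, 149 and 65 bases before the first start. In the Notch1 promoter, 3 N-boxes were found, of which the pair nearest the start overlap each other. Dll4 and Atoh1 had 1 N-box each. A match describes letters only and was not tested for binding.

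In RNA-seq, levels were compared between genes per kilobase of transcript. In WT organoids the order was led by Hes1, at 44.4 CPM per kb ± 2.25 (SD, n = 2), followed by Dll1 at 12.01, Rbpj at 10.3 and Notch1 at 7.72 CPM per kb, each with a range that did not meet the next. Jag1, Atoh1 and Jag2 lay between 4.64 and 5.23 CPM per kb and their ranges overlapped. Dll4, at 3.79 CPM per kb, and Notch2, at 3.49, were the lowest, and the range of Dll4 lay within that of Jag2. In Rptor fl/fl organoids the order behind Hes1 was Dll1 at 18.7 and Jag1 at 17.4 CPM per kb, whose ranges overlapped. In SCe organoids Rbpj was behind Hes1 at 10.1 CPM per kb, Dll1 was at 3.88 and Atoh1 was lowest at 2.23 CPM per kb ± 1.04 (SD, n = 3), and from Jag2 down each range overlapped the next.

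The comparison of Rptor fl/fl with WT organoids asked what loss of Raptor does to mRNA. Jag1, Notch2 and Dll1 mRNA rose and none of the 9 fell. These 3 of 9 stood against 22.6% of the 14131 genes tested (11.6% higher and 11% lower), and the median log2 fold change of the members was 0.042 against -0.0049 over all genes.

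Jag1, a ligand of the Jagged type, was 33.1 and 25.7 CPM in WT lines and 109 and 86.4 CPM in Rptor fl/fl lines. Both Rptor fl/fl lines were above both WT lines. The rise was 3.32-fold (log2 1.73, SE 0.17, adjusted p = 0.0109), and it was the largest among the members. Notch2 was 38.5 and 34.8 CPM in WT and 75.9 and 62.0 CPM in Rptor fl/fl, 1.88-fold higher (log2 0.91, SE 0.12, adjusted p = 0.0163). Dll1, a delta ligand of secretory cells, was 40.5 and 45.5 CPM in WT and 64.3 and 69.8 CPM in Rptor fl/fl, 1.56-fold higher (log2 0.64, SE 0.086, adjusted p = 0.0165), and without WT line 1 its adjusted p was 0.0566. The groups did not overlap in these 3 genes, nor in Jag2, Hes1, Dll4 and Rbpj, which did not pass. Lack of overlap between so few lines thus does not set the called genes apart.

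The other 6 members did not pass the test. Jag2 was 29.1 and 16.5 CPM in WT and 48.2 and 32.0 CPM in Rptor fl/fl, with a log2 fold change of 0.81 (SE 0.333, adjusted p = 0.144). The lines of the 2 groups did not overlap, but each group spanned a wide range, and DESeq2 called Jag2 higher (adjusted p = 0.0313). The receptor Notch1 was 80.0 and 66.6 CPM in WT and 71.3 and 75.1 CPM in Rptor fl/fl (log2 fold change -0.0015, 95% interval -0.27 to 0.26). Atoh1 was 8.99 and 10.9 CPM in WT and 7.90 and 12.6 CPM in Rptor fl/fl, with the WT lines between the Rptor fl/fl lines (log2 fold change 0.04, 95% interval -0.62 to 0.71, adjusted p = 0.920). Hes1, at 62.8 and 67.4 CPM in WT and 51.7 and 60.1 CPM in Rptor fl/fl, had a log2 fold change of -0.22 (adjusted p = 0.152). Dll4, the other delta ligand of the crypt, was 14.1 and 14.2 CPM in WT and 8.26 and 12.8 CPM in Rptor fl/fl (log2 fold change -0.43, adjusted p = 0.219). The WT lines were nearly equal and the Rptor fl/fl lines were not, and without Rptor fl/fl line 2 Dll4 passed as lower (log2 fold change -0.76, adjusted p = 0.0379). Rbpj was 56.1 and 54.1 CPM in WT and 53.6 and 49.2 CPM in Rptor fl/fl (log2 fold change -0.10, adjusted p = 0.343).

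**Figure D1:**
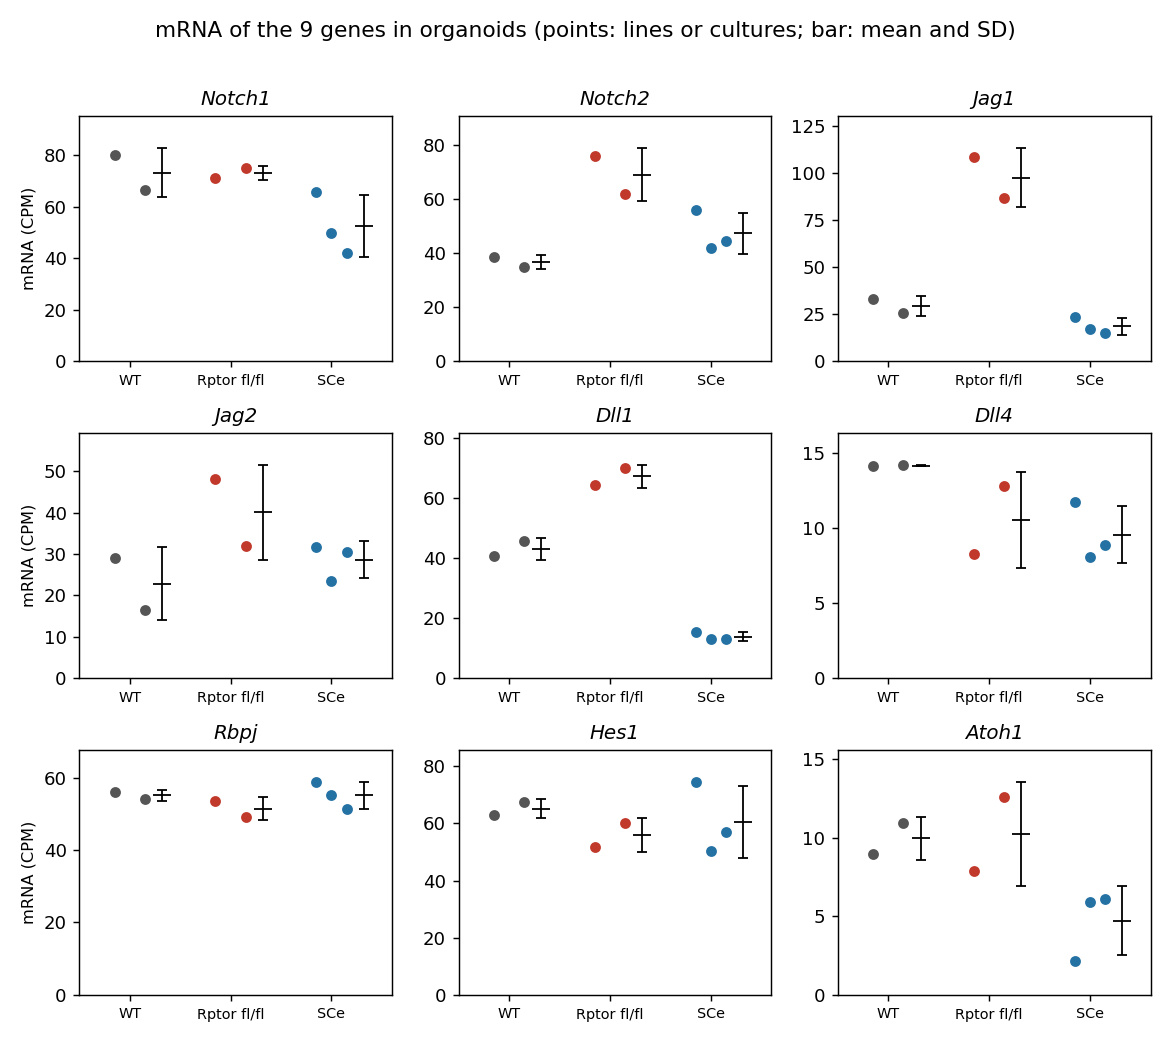
mRNA of the 9 genes in CPM (y axes) in WT, Rptor fl/fl and SCe organoids, 1 point per line or culture, with the mean and SD as a bar to the right of each group. Jag1 reached 109 and 86.4 CPM in Rptor fl/fl lines against 33.1 and 25.7 CPM in WT lines, and Dll1 was 12.9 to 15.5 CPM in SCe, below every other unit.

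Markers of some cell types moved in the same comparison. All 5 Paneth markers fell, among them Lyz1 (log2 fold change -3.15) and Mmp7 (-1.70), and their summed level was 300 to 575 CPM in Rptor fl/fl against 2349 to 3023 CPM in WT. All 5 stem cell markers fell (Lgr5 by 1.80 on the log2 scale), with 295 to 375 CPM against 714 to 716 CPM, and none was at 0. Of 7 goblet markers 4 rose, with Zg16, a lectin of mucus granules, at a log2 fold change of 2.40 and Muc2, the main intestinal mucin, at 1.55, and their summed level was 3088 to 4291 CPM against 1761 to 1902 CPM. Of 6 enteroendocrine markers 2 fell, Gcg (log2 fold change -3.01) and Cck (-2.68). Of 5 enterocyte markers 1 fell, and none of 5 tuft markers passed. The part of these marker changes in the levels of Jag1, Notch2 and Dll1 was not tested. In whole organoids fewer cells of a type and less RNA per cell cannot be told apart.

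Among 74 further genes of the pathway and of the secretory lineage, 69 were tested, 10 rose and 7 fell. These calls were 24.6% of the genes tested, near the 22.6% over all genes, and the median log2 fold change was 0.018. The nuclear complex list held 17 genes, of which Maml2, a Mastermind co-activator, rose most clearly with a log2 fold change of 1.93 (SE 0.221, adjusted p = 0.0133), from 2.13 to 2.58 CPM in WT to 7.59 to 10.4 CPM in Rptor fl/fl. Spen, a corepressor that acts with RBPJ, rose too (0.44), Ctbp1 fell (-0.27) and 14 did not pass. The ligand list had Jag1 and Dll1 higher and Dll3, a ligand thought to act within the cell, lower (log2 fold change -2.43, adjusted p = 0.0427), from 1.02 to 1.35 CPM to 0.0968 to 0.332 CPM. In the ligand regulators Neurl1a (1.06) and Neurl1b (0.43), which encode ubiquitin ligases, rose, and Dlk2, at 1 and 2 reads in WT lines, had 21 in each Rptor fl/fl line.

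Pofut1, which fucosylates receptors, rose by 0.38 on the log2 scale as 1 of 5 glycosylation genes. In the receptor turnover list Dtx3 (1.28) and Nedd4 (0.40) rose among 10 tested. Of 10 cleavage genes 1 fell, Aph1b, a part of gamma-secretase (log2 fold change -0.83). Only 1 of 7 tested targets passed, Myc, with a rise of 0.73. In the list of secretory factors, 4 of 13 fell and 1 rose. Bhlha15, which matures secretory cells, fell by 1.88 on the log2 scale, Sox4 by 0.72 and Hes6, a HES-related factor of secretory precursors, by 0.77, and Spdef, a goblet and Paneth factor, rose by 0.82. Maml2, Bhlha15, Sox4 and Hes6 kept their calls in each of the 4 fits that left out 1 line, and the other wider genes named for this comparison lost theirs in at least 1.

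**Figure D2:**
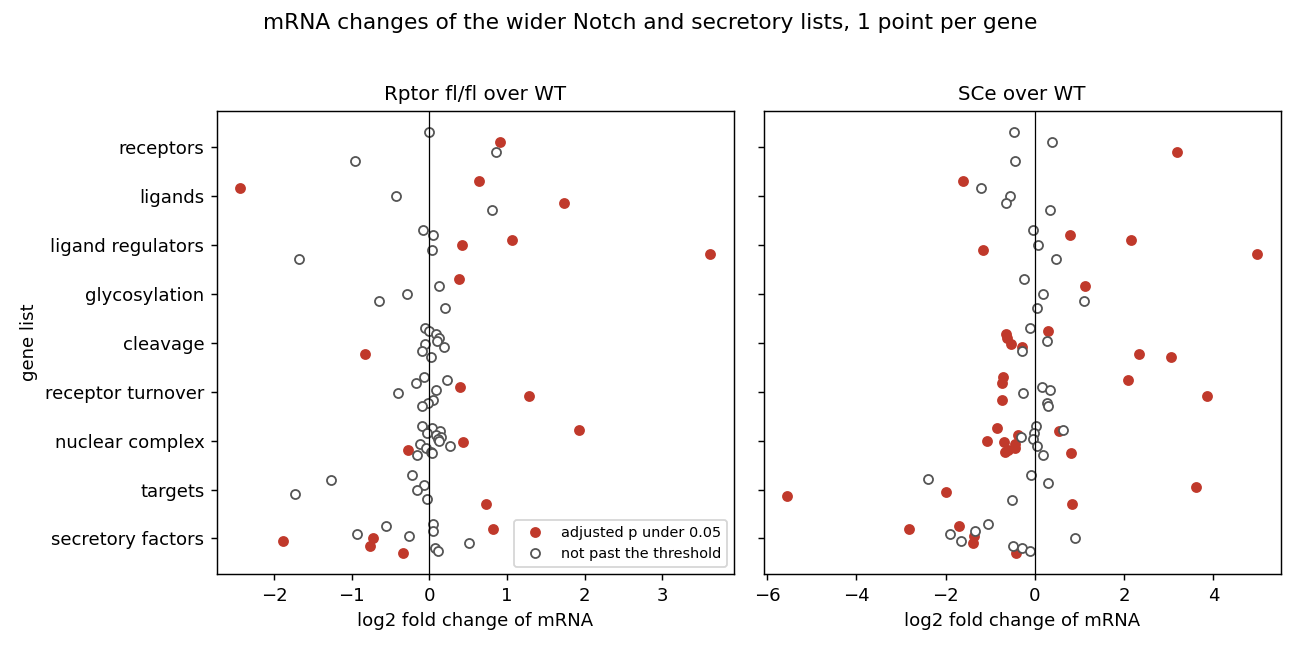
Log2 fold change of mRNA (x axes) for each gene of the receptor, ligand, ligand regulator, glycosylation, cleavage, receptor turnover, nuclear complex, target and secretory factor lists (y axis), in Rptor fl/fl over WT (left) and SCe over WT (right). Filled points passed the adjusted p threshold of 0.05: in the nuclear complex list 3 of 17 genes on the left and 10 of 17 on the right. Over all genes 22.6% passed on the left and 42.3% on the right.

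SCe and WT organoids were compared to see how the pathway stood in stem cell enriched cultures. Only Dll1 passed, and it fell. This 1 of 9 stood against 42.3% of 14925 genes (22.4% higher and 19.9% lower), and the median log2 fold change of the members was -0.46 against 0.02 over all genes. The same WT lines served here and in the comparison before.

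Dll1 was 15.5, 12.9 and 13.1 CPM in SCe cultures, below 40.5 and 45.5 CPM in WT, a fall of 1.62 on the log2 scale (SE 0.116, adjusted p = 0.00159), which is 3.07-fold. No SCe culture came near a WT line. Atoh1 was 2.17, 5.91 and 6.09 CPM in SCe and 8.99 and 10.9 CPM in WT, with a log2 fold change of -1.04 (SE 0.462, adjusted p = 0.128). All 3 SCe cultures lay under both WT lines, culture 1 farthest. Jag1 was 23.4, 17.4 and 14.8 CPM (log2 fold change -0.65, adjusted p = 0.0735), Dll4 was 11.7, 8.10 and 8.91 CPM (-0.55, adjusted p = 0.0665) and Notch1 was 65.7, 49.9 and 42.1 CPM (-0.46, adjusted p = 0.131). In each of these 3 genes every SCe culture was lower than both WT lines. Notch2, at 56.0, 41.7 and 44.5 CPM, was higher in every SCe culture (0.39, adjusted p = 0.0883). Without the share of all genes that separate in this way, the separation does not set these members apart. Jag2 was 31.8, 23.4 and 30.5 CPM, Hes1 74.6, 50.4 and 56.8 CPM, and Rbpj 58.8, 55.2 and 51.3 CPM, and these 3 overlapped WT with adjusted p values of 0.363, 0.724 and 0.855.

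This count depended on the method and on SCe culture 1. Without it 7 of the 9 passed, with 64.2% of all 14855 genes tested then passing: Notch1, Dll1, Dll4, Jag1, Hes1 and Atoh1 were lower and Notch2 was higher. Atoh1 then had a log2 fold change of -0.71 (adjusted p = 0.00776) and Hes1 of -0.26 (adjusted p = 0.0376). Without WT line 1 or 2 the count stayed at 1 gene.

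In the wider lists 14 of 70 tested genes were higher and 23 lower in SCe than in WT, with a median of -0.25. Together these calls were 52.9% of the genes tested, beside 42.3% over all genes. Notch3 was the only receptor of 4 to pass, with a log2 fold change of 3.18 (adjusted p = 0.000941), from 3.12 to 3.15 CPM in WT to 25.8 to 29.7 CPM in SCe. Among 8 tested targets, Nrarp, a direct Notch target that feeds back on the complex, fell with a log2 fold change of -2.003 and Olfm4, a stem cell gene that Notch activates, with -5.55, from 2864 to 4433 CPM in WT to 42.2 to 135 CPM in SCe. Myc rose (0.84), and Hey1, at 1 and 2 reads in WT, had 14 to 25 in SCe. The list of targets thus had 2 genes higher and 2 lower. Without at least 1 of the units Myc and Hey1 lost their calls, while Nrarp and Olfm4 kept theirs in all 5 fits that left out 1 unit.

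The nuclear complex list had 2 genes higher and 8 lower of 17. Kat2b, a histone acetyltransferase, fell by 1.08 and Maml1 by 0.84, and Hdac1, a deacetylase of the class that valproic acid inhibits, rose by 0.80. Dtx3 rose by 3.86 on the log2 scale, to 24.6 to 25.0 CPM in SCe, and Itch fell by 0.74, within 2 higher and 3 lower of 10 receptor turnover genes. In the cleavage list 3 were higher and 4 lower of 10, with the gamma-secretase genes Aph1c (3.05) and Aph1b (2.32) among the higher. In the secretory list 5 of 13 fell and none rose. Spdef fell by 2.83, Gfi1, which acts downstream of Atoh1, by 1.69 and Creb3l1 by 1.38. Goblet markers, 5 of 7 lower, and enteroendocrine markers, 5 of 6 lower, moved in the same direction, with sums of 247 to 480 CPM and 1.34 to 22.8 CPM in SCe against 1761 to 1902 CPM and 183 to 277 CPM in WT. Of 5 Paneth markers 1 was higher, Pla2g2a (log2 fold change 5.01), and none lower, and of 5 tuft markers 1 was higher and 3 lower. The part of these markers in the change of Dll1 was not tested.

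The Rptor fl/fl lines and SCe cultures of the comparisons above were also set against each other in RNA-seq. Dll1, Jag1 and Notch2 were higher in Rptor fl/fl, and none was lower. These 3 of 9 stood against 42.7% of 15103 genes (21% higher and 21.8% lower), and the median log2 fold change of the members was 0.49 against -0.014 over all genes. Jag1 was 5.28-fold higher (log2 2.40, SE 0.221, adjusted p = 0.00206) and Dll1 4.87-fold higher (log2 2.28, SE 0.113, adjusted p = 0.000978). Notch2 was 1.46-fold higher (log2 0.54, adjusted p = 0.0459), and it lost the call without any single unit other than SCe culture 1, with adjusted p values up to 0.234. Atoh1 was higher in both Rptor fl/fl lines than in all SCe cultures but did not pass (log2 1.11, SE 0.487, adjusted p = 0.123). Without SCe culture 1, Atoh1 (log2 0.77, adjusted p = 0.0373) and Notch1 (0.67, adjusted p = 0.00282) passed as well. The number of calls over all genes also moved with the unit left out.

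Of 70 wider genes tested, 24 were higher and 15 lower in Rptor fl/fl than in SCe. Together these calls were 55.7% of the genes tested, beside the 42.7% over all genes. In the nuclear complex list 10 of 17 genes were higher, among them Kat2b (1.23), Spen (1.14) and Maml1 (0.89), and 3 were lower, among them Hdac1 (-0.74). Nrarp (1.86), Olfm4 (3.85) and Spdef (3.66) were higher, and Notch3 (-2.30) and Dtx3 (-2.55) were lower, and of these 5 only Olfm4 lost its call when 1 unit was left out, which was Rptor fl/fl line 2. Hey1 had no reads in either Rptor fl/fl line and 14 to 25 in SCe. Goblet markers were higher in 6 of 7 cases.

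Footprints of SCe were compared with those of libraries labelled Rptor fl/fl to see which of these differences reached ribosomes. Per kilobase of coding entry, Hes1 led in both, at 176 CPM per kb ± 12.8 (SD, n = 3) in Rptor fl/fl and 116 CPM per kb ± 23.3 in SCe. Rbpj was next at 38.1 and 31.9. Before division by length its CPM was alike, at 46.0 and 46.8 on average, and its length rests on estimated transcript shares. Behind them Dll1, Atoh1, Notch1, Jag1 and Dll4 lay between 9.38 and 19.6 CPM per kb in Rptor fl/fl, with each range overlapping the next, and Jag2 was lowest at 3.39 CPM per kb. In SCe the 7 genes behind Rbpj, from Notch1 at 10.6 to Jag2 at 4.58 CPM per kb, overlapped from one to the next.

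Dll1 was the only member whose footprints passed. It was higher in the libraries labelled Rptor fl/fl, and no member was lower, so 1 of 9 stood against 16.5% of 10817 genes (6.63% higher and 9.84% lower). The median log2 fold change of the members was 0.20 against -0.023 over all genes. Dll1 footprints were 60.8, 34.1 and 35.6 CPM in Rptor fl/fl and 9.22, 15.4 and 9.48 CPM in SCe, from 17, 18 and 41 SCe footprints. The groups were far apart, and the difference was 3.99-fold (log2 2.00, SE 0.324, adjusted p = 0.00494).

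Hes1 and Atoh1 footprints were higher in every Rptor fl/fl library but missed the threshold. Hes1 was 170 CPM, 156 CPM and 147 CPM in Rptor fl/fl and 103, 83.0 and 125 CPM in SCe (log2 fold change 0.60, 95% interval 0.17 to 1.02, adjusted p = 0.0614). Atoh1 was 19.3, 10.6 and 15.5 CPM in Rptor fl/fl and 4.34, 5.99 and 9.25 CPM in SCe, the latter resting on 8, 7 and 40 footprints (log2 fold change 1.13, 95% interval 0.29 to 1.96, adjusted p = 0.0692). In both genes the groups did not overlap, but the share of all genes for which this holds is not given. Without SCe library 3 both passed, with log2 fold changes of 0.76 and 1.59, and without SCe library 1 Hes1 passed (0.57, adjusted p = 0.0486) as did Notch2, lower by 0.70 (adjusted p = 0.00543).

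The remaining members overlapped between groups. Notch1 was 91.9, 88.3 and 90.9 CPM in Rptor fl/fl and 68.4, 104 and 71.0 CPM in SCe (log2 fold change 0.17, adjusted p = 0.592). Notch2 was 53.3, 53.7 and 53.2 CPM in Rptor fl/fl and 44.5, 89.0 and 85.1 CPM in SCe (-0.45, adjusted p = 0.256). The Rptor fl/fl libraries were close together in both receptors and the SCe libraries were not. Jag1 was 45.4, 37.0 and 46.2 CPM in Rptor fl/fl and 23.3, 37.6 and 38.9 CPM in SCe (0.36, 95% interval -0.17 to 0.89, adjusted p = 0.330). Jag2 was 9.80, 16.8 and 11.9 CPM in Rptor fl/fl and 15.2, 16.3 and 20.6 CPM in SCe (-0.46, adjusted p = 0.299). Dll4 (17.8, 18.6 and 22.9 CPM against 11.4, 17.1 and 22.0 CPM) and Rbpj (45.4, 46.7 and 46.0 CPM against 47.7, 40.2 and 52.5 CPM) had adjusted p values of 0.654 and 0.905.

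**Figure D3:**
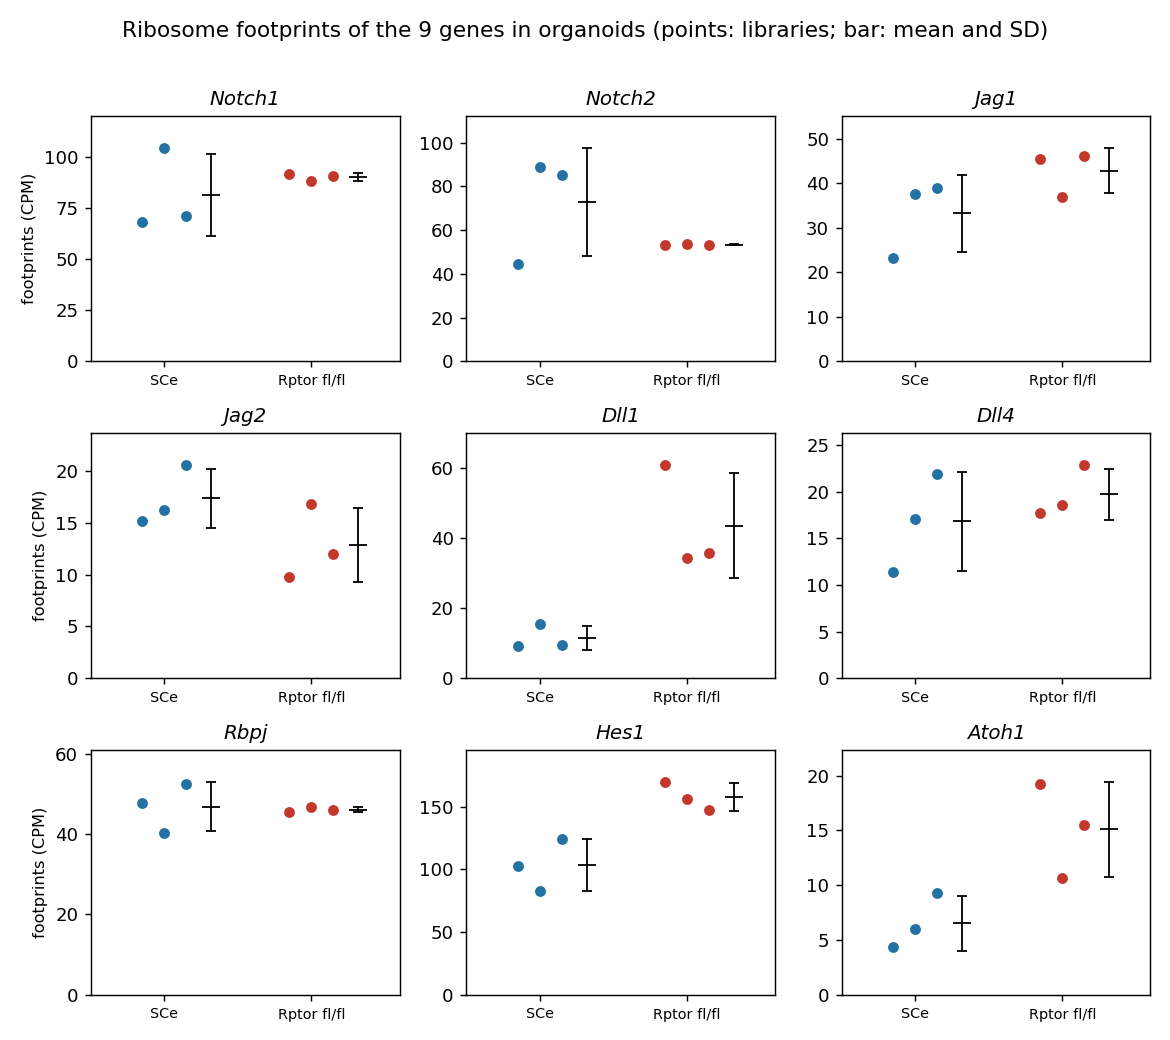
Footprints of the 9 genes in CPM (y axes) in SCe and Rptor fl/fl organoid libraries, 1 point per library, with the mean and SD as a bar to the right of each group. Dll1 was 34.1 to 60.8 CPM in the libraries labelled Rptor fl/fl and 9.22 to 15.4 CPM in SCe, while the Jag1 libraries overlapped.

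Calls made up 21.7% of the 60 wider genes tested in footprints, beside 16.5% over all genes. Of them 6 rose and 7 fell from SCe to libraries labelled Rptor fl/fl, with a median of 0.12. Olfm4 was 4322 to 4675 CPM there and 416 to 1160 CPM in SCe (log2 fold change 2.47, adjusted p = 0.00288). In RNA-seq Olfm4 was 521 to 1681 CPM in Rptor fl/fl and 2864 to 4433 CPM in WT. The study reported that OLFM4 protein was lost from organoids after Rptor deletion, so the Olfm4 footprints do not bear out the label either. Nrarp had 37 to 56 footprints in Rptor fl/fl libraries and 3 or 4 in SCe (adjusted p = 0.0477). Spen (1.13), Ncor1 (1.03) and Crebbp (1.08) were higher and Hdac1 (-1.13) lower in the nuclear complex list, of which 13 of 17 did not pass. Notch3 (-1.996), Poglut1 (-1.63), Lfng (-1.33) and Aph1b (-2.69) were lower. None of the 13 secretory factors passed, although all 7 goblet markers were higher, summing to 3222 to 5247 CPM against 1187 to 1576 CPM. Olfm4, Hdac1, Poglut1 and Aph1b kept their calls in all 6 fits that left out 1 library, and Nrarp, Spen, Ncor1, Crebbp, Notch3 and Lfng did not.

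Footprints relative to mRNA, the translation efficiency, were tested as the interaction of assay and group. Jag1 was the only member to pass and it was lower in Rptor fl/fl, 1 of 9 against 2.93% of 10747 genes (1.12% higher and 1.81% lower). With an offset for effective length the calls over all genes went from 120 higher and 195 lower to 64 higher and 62 lower. The members had a median log2 difference of -0.22 against -0.031 over all genes. Jag1 mRNA differed by 2.40 on the log2 scale and its footprints by 0.36. The difference of these was -1.99 (SE 0.32, 95% interval -2.69 to -1.28, adjusted p = 0.0129). It is a 3.96-fold lower efficiency only if RNA-seq and Ribo-seq sampled like organoids, which their genotype labels do not show. Without Rptor fl/fl RNA-seq line 1 the adjusted p was 0.0863. With the replicate number as a block it was 0.0868 (log2 difference -2.05), and 27 genes passed in place of 315. On the per-kilobase scale Jag1 footprints divided by mRNA were 2.72 in SCe and 0.666 in Rptor fl/fl.

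Dll1 differed by a like amount in mRNA (2.28) and footprints (2.00), with a log2 difference in efficiency of -0.22 (95% interval -1.04 to 0.60, adjusted p = 0.796). Atoh1 had 1.11 and 1.13 and a difference of 0.083 with a wide interval (-1.36 to 1.52). The efficiencies of Notch2 (-0.94, adjusted p = 0.140) and Jag2 (-0.90, adjusted p = 0.194) lay below 0 with intervals that did not reach 0, and that of Hes1 lay above (0.76, 95% interval 0.18 to 1.34, adjusted p = 0.142), but none passed. Notch1, Dll4 and Rbpj had efficiency differences of -0.26, 0.11 and 0.11 with adjusted p values of 0.656, 0.916 and 0.833. None of the 60 wider genes passed, beside 2.93% over all genes.

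The Rptor fl/fl RNA-seq and Ribo-seq organoids had different genotype labels, and other genes set them apart too. Rptor itself had an efficiency difference of 1.43 (adjusted p = 0.0777). The 5 Paneth markers summed to 300 to 575 CPM in the Rptor fl/fl RNA-seq and 3614 to 5792 CPM in the libraries labelled Rptor fl/fl in Ribo-seq. SCe had 1105 to 2926 CPM in RNA-seq and 2721 to 4737 CPM in Ribo-seq, and WT RNA-seq had 2349 to 3023 CPM. For Jag1 itself, mRNA had a log2 fold change of -0.65 in SCe over WT. Of 7 goblet markers 3 had a lower efficiency. The part of these differences in the Jag1 value was not tested.

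**Figure D4:**
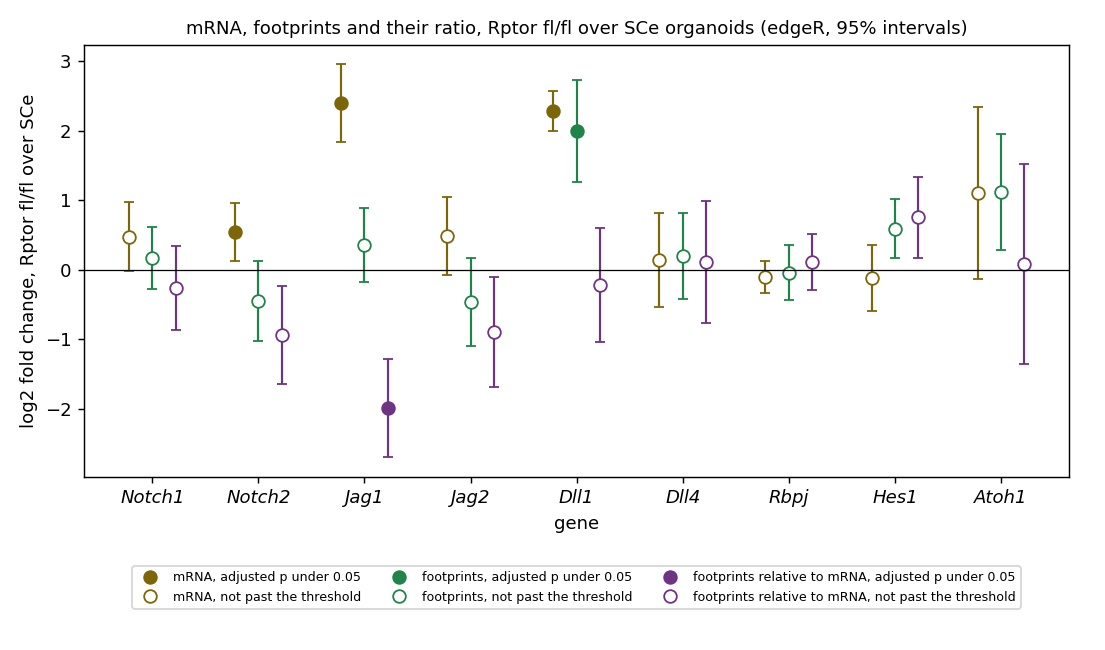
Log2 fold change of Rptor fl/fl over SCe (y axis) for mRNA, footprints and footprints relative to mRNA of each gene (x axis), with 95% intervals from edgeR. Filled points passed an adjusted p of 0.05. Jag1 mRNA stood at 2.40, its footprints at 0.36 and their difference at -1.99, while Dll1 stood at 2.28 and 2.00.

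In mice the question was whether loss of Raptor in Lgr5 cells changed footprints in tissue. None of the 9 members passed, against 13.4% of 11515 genes (7.47% higher and 5.97% lower), and 1 member, Notch1, had an unadjusted p under 0.05. DESeq2 also called 0 of 9. Of all genes 860 were higher and 687 lower, and with library totals in place of TMM factors 594 were higher and 1059 lower. The members' median log2 fold change was -0.04 against -0.015 over all genes.

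Notch1 was 31.6, 42.9 and 48.0 CPM in WT and 38.2, 33.8 and 32.7 CPM in Rptor fl/fl, which overlap (log2 fold change -0.33, 95% interval -0.63 to -0.029, adjusted p = 0.144). Rbpj was 26.5, 30.1 and 32.9 CPM in WT and 39.9, 37.1 and 36.1 CPM in Rptor fl/fl (0.28, adjusted p = 0.190). Dll4 was 11.4, 12.8 and 11.5 CPM in WT and 21.4, 14.9 and 13.3 CPM in Rptor fl/fl (0.42, adjusted p = 0.229). Every Rptor fl/fl library was higher than every WT library in Rbpj and Dll4. How many of all genes separate in this way is not given, so it does not set Rbpj and Dll4 apart. Dll1 was 65.7, 43.8 and 44.7 CPM in WT and 45.5, 42.6 and 36.6 CPM in Rptor fl/fl (-0.23, adjusted p = 0.348). The highest Dll1 value came from the WT library with the fewest reads, where 52 footprints were counted.

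The 3 members that rose in Rptor fl/fl organoid mRNA had intervals in mice that can be set beside it. Jag1 was 24.0, 23.7 and 21.7 CPM in WT and 24.4, 22.5 and 20.3 CPM in Rptor fl/fl, with a 95% interval of 0.777- to 1.22-fold. Notch2 was 44.2, 44.7 and 44.2 CPM and 47.1, 41.4 and 46.0 CPM, with an interval of 0.854- to 1.199-fold. The interval of Dll1 was 0.685- to 1.06-fold. These are footprints of tissue and not mRNA of organoids, so the values stand side by side without a test. Atoh1 was 19.0, 15.1 and 24.7 CPM in WT and 22.1, 25.9 and 20.7 CPM in Rptor fl/fl, Hes1 25.3, 31.0 and 34.0 CPM and 32.0, 28.3 and 27.9 CPM, both overlapping. Jag2 had only 3 to 36 footprints in any mouse, and its log2 fold change of -0.30 had a wide 95% interval of -1.21 to 0.61 (adjusted p = 0.716).

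**Figure D5:**
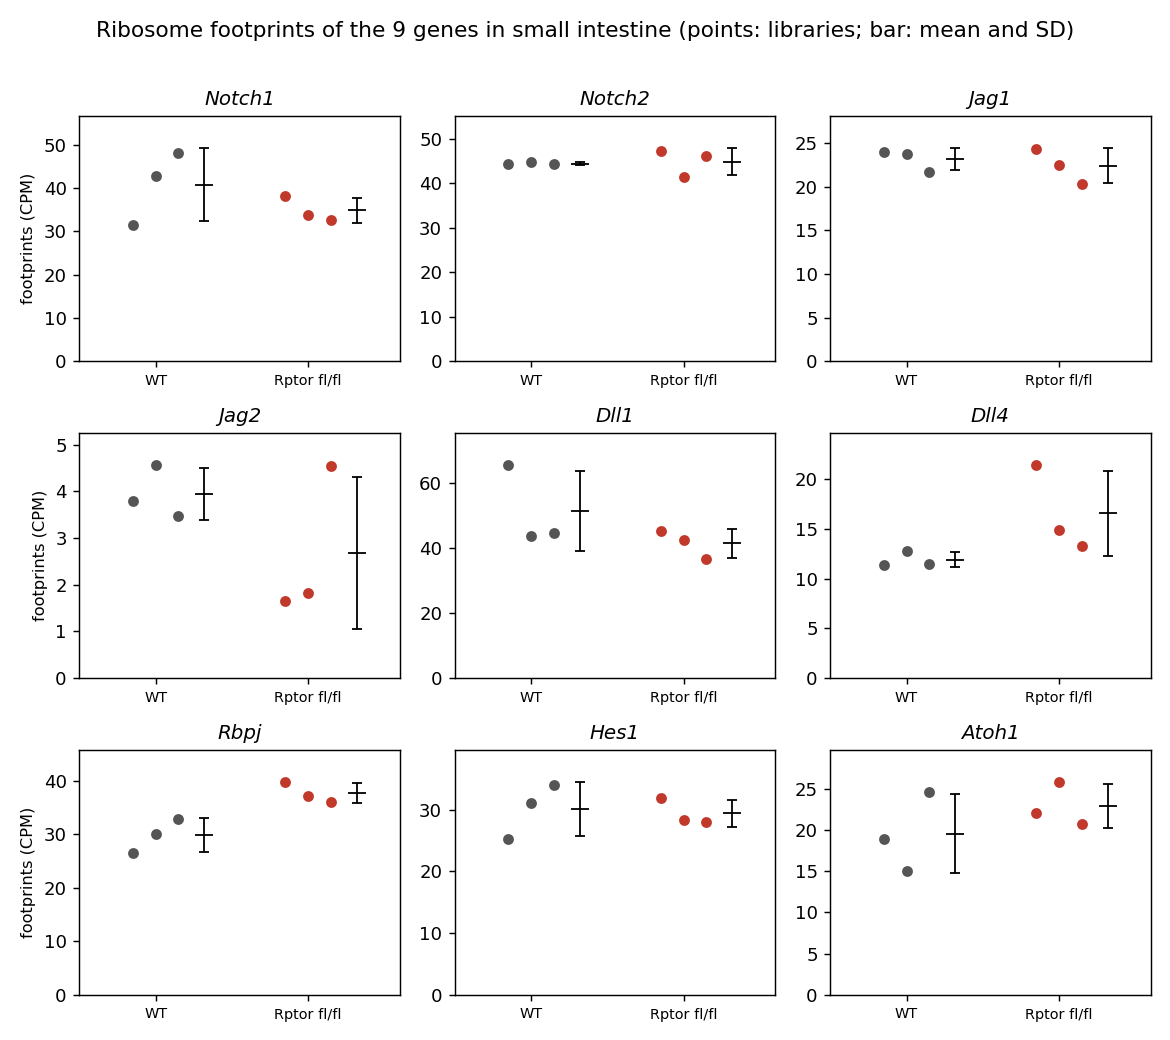
Footprints of the 9 genes in CPM (y axes) in WT and Rptor fl/fl small intestine, 1 point per mouse library, with the mean and SD as a bar to the right of each group. The Rptor fl/fl libraries of Rbpj (36.1 to 39.9 CPM) and Dll4 (13.3 to 21.4 CPM) sit above the WT libraries (26.5 to 32.9 and 11.4 to 12.8 CPM), and the other members overlap. Neither Rbpj nor Dll4 passed the test.

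Per kilobase, Hes1, Dll1, Rbpj and Atoh1 were the highest in WT mice, at 26.6, 17.5, 16.9 and 15.2 CPM per kb, with ranges that overlapped from each to the next. Atoh1 was separate from Notch2, Jag1, Notch1 and Dll4, which lay between 4.85 and 5.83, and Jag2 was lowest at 0.969 CPM per kb.

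The pulled-down material contained cell types other than the Lgr5 cells that carry Cre. The 5 stem cell markers summed to 81.7 to 98.1 CPM in WT and 68.6 to 202 CPM in Rptor fl/fl, while 5 immune markers summed to 3360 to 3776 CPM, 5 smooth muscle markers to 1164 to 1365 CPM and 6 stromal markers to 888 to 947 CPM in WT and 1128 to 1330 CPM in Rptor fl/fl. All 8 endothelial markers were present and summed to 96.8 to 103 CPM in WT and 130.1 to 141 CPM in Rptor fl/fl, with Eng, Emcn and Cdh5 higher in Rptor fl/fl (log2 fold changes of 0.67, 1.32 and 0.71). Endothelium is known to express Dll4, Notch1 and Jag1, and the part of these cells in those values was not tested. The calls of these 3 endothelial markers were each lost in 2 of the 6 fits that left out 1 mouse. Of the stromal markers 5 of 6 rose. Rptor fl/fl mouse 1 stood apart from the other Rptor fl/fl mice, with the stem cell markers at 202 CPM and the Paneth markers at 5390 CPM, and the members' count stayed at 0 without it and without each other mouse.

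Among 60 wider genes tested in mice 4 rose and 3 fell, which is 11.7% beside 13.4% over all genes. Of 8 cleavage genes 3 rose, among them Adam10, the protease of the first cut, by 0.32 on the log2 scale and Ncstn, a part of gamma-secretase, by 0.29, while 5 did not pass. Ncor1 rose (0.28) and Spen fell (-0.54) among 17 nuclear complex genes. Of 5 targets Olfm4 fell by 0.63 (adjusted p = 6.29e-05) and Myc by 0.48. None of 12 secretory factors tested passed. Spen and Olfm4 kept their calls in all 6 fits that left out 1 mouse, and Adam10, Ncstn, Ncor1 and Myc did not.

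Finally, likeness of pattern was measured over the 7 RNA units among 10666 genes with a mean of at least 5 CPM, as Pearson's r of log2 (CPM + 1). The genes most like Atoh1 were Acad11, Bcap31, Gm21750, Slc26a3 and Gm21833, with r from 0.988 to 0.991. The genes most like Hes1 were Sdhaf1, Gm49383, Cpe, Tsen15 and Zfp141, with r from 0.950 to 0.982. Among the members, Dll1 was the most like Atoh1 (r = 0.735) and Dll4 the most like Hes1 (r = 0.772), and Atoh1 and Hes1 had r = -0.312. The 7 units share 3 conditions, and the correlations describe these units alone.

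Some members were also read less surely than others. Rbpj had 6 annotated transcripts. The estimated share of 1 of them was 22.0% to 49.2% of the gene's reads in the 4 WT RNA-seq libraries. It was 36.4% in 1 of the 4 Rptor fl/fl libraries and 0% in all SCe libraries. The comparisons therefore used the summed counts of Rbpj. Its values per kilobase, and its values with the length offset, depend on estimated transcript shares. The annotation has processed pseudogenes of Rbpj that lay outside the protein-coding sequences counted, so reads from them could not be told apart.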

How the data were processed

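RNA-seq libraries were made from polyadenylated RNA with a strand-specific kit, and Ribo-seq libraries from footprints of HA-tagged ribosomes. According to the labels and methods, the authors trimmed reads with cutadapt 1.18, used build mm10 and quantified transcripts with Salmon 1.1.0. The deposited values were estimated counts per transcript, which were summed per gene and rounded. The organoid Ribo-seq reference listed coding sequences and 5′ regions separately, and only the coding entries were used. A deposited table of the authors' own translation efficiency comparison was not used.

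Technical libraries of a line were summed. Groups were compared with edgeR 4.0.16 in R 4.3.3 (filterByExpr, TMM, quasi-likelihood test, Benjamini-Hochberg adjustment over all genes, threshold 0.05), with only the groups concerned in each fit. CPM used TMM factors over all units of an assay. Scripts were tested on simulated data. DESeq2 1.42.0, library totals, no count filter, an effective length offset, separate technical libraries, added 5′ entries, a replicate block and leaving out each unit were alternatives. The labels do not say that replicates came from separate animals or cultures throughout, so p-values measure the spread between these samples.

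The 9 members were named in every comparison, and from each wider list at most the 4 genes with the smallest adjusted p under 0.05. The members and lists were chosen with earlier results of these data known. The values of 1 gene of the cleavage list are not reported here. Same-numbered SCe RNA-seq and Ribo-seq samples deviated together (correlations of 0.295, 0.104 and 0.202), so the efficiency fit is also given with the number as a block.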

Additional observations from a re-analysis of the deposited data

Results flagged for a closer look

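Footprints 5′ of the coding sequence were counted apart in organoid Ribo-seq and entered no comparison of the main text. They were flagged because each total exceeded the 3 counts that a count of 0 allows. Summed over the 3 libraries labelled Rptor fl/fl, Hes1 had 806 such footprints, Dll1 329, Jag1 92, Dll4 80, Notch1 48, Atoh1 28, Rbpj 21, Notch2 20 and Jag2 4. Over the 3 SCe libraries, which were sequenced less deeply, Hes1 had 159, Dll1 25, Notch1 18, Jag1 17, Notch2 13, Dll4 9, and Jag2, Rbpj and Atoh1 had 4 each.

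Dll1 and Hes1 had the largest shares among the members. In the libraries labelled Rptor fl/fl the 5′ entries held 27.8% ± 3.45 of the Dll1 footprints and 19.8% ± 3.68 of those of Hes1 (SD, n = 3), against 3.82% to 4.25% over all genes. In SCe the shares were 26.9% ± 11.6 for Dll1 and 19.8% ± 12.9 for Hes1, against 2.97% to 6.98% over all genes. The 5′ entry made up 25.2% of the combined length for Dll1 and 22.6% for Hes1, so these shares were close to the share of length. Rbpj, whose 5′ entry made up 39.4% of its length, had a share of 2.14% in the libraries labelled Rptor fl/fl. The difference between groups in these shares was not tested.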

How the results depend on the processing

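Of 648 alternative values for the members, 573 kept their direction and their side of the threshold. With technical libraries treated as separate samples, 5 members passed in Rptor fl/fl over WT, 6 in SCe over WT, 5 in Rptor fl/fl over SCe and 3 in efficiency. Technical libraries of a line are not independent samples, and calls over all genes moved with these settings too, as given below. DESeq2 called 3 in SCe over WT and 2 in organoid footprints. When 1 unit was left out, the counts ran from 2 to 4 in Rptor fl/fl over WT, from 1 to 7 in SCe over WT, from 2 to 5 in Rptor fl/fl over SCe, from 1 to 3 in organoid footprints and from 0 to 2 in efficiency, and stayed at 0 in mice. Jag2 mRNA in Rptor fl/fl over WT passed with DESeq2 (adjusted p = 0.0313), and Notch2 mRNA in Rptor fl/fl over SCe was lost with library totals (adjusted p = 0.106). The cause of these changes was not tested.

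Correlations of same-numbered deviations were 0.303 between Rptor fl/fl and WT lines, where 2 samples a group give both pairs the same value, 0.144 to 0.165 and 0.197 to 0.25 in the other RNA-seq pairs, -0.044 to 0.0289 in organoid footprints and -0.00561 to 0.034 in mice. Of 6 organoid footprint samples 2 correlated best with their own number, as did 2 of 6 mice. These samples were taken to share a number only. In the efficiency fit the SCe RNA-seq and Ribo-seq samples of the same number correlated at 0.104 to 0.295, and those of Rptor fl/fl at -0.00137 and 0.0453. With the replicate block, 5 members passed in Rptor fl/fl over WT, where Jag2 was higher (log2 0.83, adjusted p = 0.00253) and Hes1 lower (-0.22, adjusted p = 0.0480), and 0 in efficiency. With separate technical libraries Hes1 had an adjusted p of 0.0346 there, but that fit counts libraries of the same line as independent samples. With lines as samples and no block it was 0.152.

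None of the values that changed sign passed the threshold. Notch1 mRNA in Rptor fl/fl over WT was 0.0020 with DESeq2, 0.045 with library totals, 0.0089 with the length offset, 0.0016 with separate libraries and 0.0038 with the replicate block. Rbpj was -0.14 in SCe over WT mRNA and 0.72 in organoid footprints with the length offset, and 0.00011 in the latter with no count filter. With library totals, Atoh1 efficiency was -0.032 and Notch2 in mice -0.062. Over fits that left out 1 unit, log2 fold changes in Rptor fl/fl over WT ran from -0.32 to 0.34 for Atoh1 and from -0.13 to 0.13 for Notch1. In SCe over WT they ran from -0.26 to 0.030 for Hes1, from -0.021 to 0.79 for Jag2 and from -0.031 to 0.070 for Rbpj. In Rptor fl/fl over SCe they ran from -0.20 to 0.43 for Dll4 and from -0.24 to 0.060 for Hes1. Organoid footprints ran from -0.026 to 0.52 for Dll4 and from -0.12 to 0.066 for Rbpj. Efficiency ran from -0.22 to 0.54 for Atoh1 and from -0.17 to 0.48 for Dll4. In mice they ran from -0.045 to 0.48 for Atoh1, from -0.18 to 0.0044 for Hes1, from -0.11 to 0.046 for Jag1 and from -0.0037 to 0.070 for Notch2.

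Counts over all genes moved more. In Rptor fl/fl over WT 3195 genes became 7208 with separate libraries, and 939 to 2126 with 1 line left out. In SCe over WT 6309 became 3154 with the block and 2027 to 9530 with 1 unit left out, and in Rptor fl/fl over SCe 6452 became 3413 and 2509 to 9101. Organoid footprints went from 1781 to 686 with the length offset and to 669 to 2682 with 1 library left out. Efficiency went from 315 to 1206 with DESeq2, 1312 with separate libraries, 206 with library totals, 126 with the length offset, 27 with the block and 25 to 951 with 1 unit left out. Mice went from 1547 to 687 with the length offset and to 897 to 1954 with 1 mouse left out.

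Depth limits Atoh1 and Dll1 footprints in SCe, which rest on 7 to 41 reads a library, and Jag2 in mice, on 3 to 36.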
